A study of Mus musculus with 6 samples.

Results

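Endothelial cells line the vessels of the liver, and 10 genes that mark them were followed here in livers with and without Dicer in hepatocytes. The 10 genes were chosen by symbol: Stab1, Stab2, Lyve1, Clec4g and Gata4 for the sinusoidal endothelium, Vwf for larger vessels, Pecam1, Cdh5 and Kdr for endothelium in general, and Esm1 for endothelial tip cells. All 10 were found among the 50600 genes of the deposited tables, and all 10 passed the filter on low counts, which left 14314 genes. RNA came from whole liver of C57BL/6 mice about 1 month old. The 3 Dicer LKO (liver knockout) samples carried loxP-flanked Dicer alleles and the Alb-cre transgene, in which the albumin promoter drives Cre in hepatocytes. The 3 control samples carried the loxP-flanked alleles without Cre, so both groups share the floxed gene, and Cre itself is present in 1 group only. Endothelial cells are not a target of this Cre and are measured here as a minor part of whole liver. The labels do not state whether each sample is a different animal, and the p-values rest on the variation among these 6 libraries, some of which may be technical.

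The blood capillaries of the liver, the sinusoids, are lined by an unusual endothelium: it is perforated, lacks a continuous basement membrane, and takes up waste molecules from blood with scavenger and lectin receptors. Arteries, portal and central veins are lined by continuous endothelium, which stores von Willebrand factor. In chronic liver injury the sinusoidal cells can lose their perforations and gain features of continuous endothelium, a change known as capillarization. In bulk tissue, more cells of a type and more RNA per cell cannot be told apart, and this holds for every value below.

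Depth ranged from 14141973 counts in control replicate 3 to 25049749 in Dicer LKO replicate 3. The targeted gene, Dicer1, lay at 28.9, 31.2 and 24.4 CPM (counts scaled to a common library size with TMM factors) in Dicer LKO replicates 1 to 3 and at 42.5, 69.3 and 56.1 CPM in the controls, below every control but not called (log2 fold change −0.99, SE 0.20, adjusted p = 0.0622 by edgeR's quasi-likelihood test). Hepatocyte markers were at the levels of liver, with Alb at 24300 to 52100 CPM. Some libraries stood apart. Mitochondrial genes took 10.2% of the counts in control replicate 3 and 4.62% to 6.46% in the other 5. Transcripts of heart muscle genes such as Myh6 were at 0 counts in Dicer LKO replicates 1 and 2 and at 3.31 to 7.65 CPM in the other 4 libraries. Control replicate 3 also held Myh7 at 79.2 CPM, against 1.59 CPM or less elsewhere. Values without control replicate 3, or for the 4 libraries with Myh6 counts alone, are given below beside the calls they end and beside the values they move most. The part of these differences between libraries in the results was not tested.

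Of the 10 endothelial genes, 2 rose in Dicer LKO and 0 fell (edgeR, Benjamini-Hochberg adjusted p under 0.05 over all genes): Esm1, about 12-fold, and Vwf, about 2.73-fold. Among all genes tested, 1.29% were called and 0.741% were called higher. The median log2 fold change of the 10 was 0.61, against −0.01 over all genes tested. In 6 of the 10 (Stab2, Lyve1, Clec4g, Vwf, Pecam1 and Esm1) the CPM of every Dicer LKO library lay above every control, and in none did they lie below. At an unadjusted p under 0.05 lay 7 of the 10 members and 21.0% of all genes tested, the share against which every such count of a list below is to be read. DESeq2 called 5 of the 10 and 6.77% of all genes it gave an adjusted p, and voom with sample weights called 4 of the 10 and 5.50% of all genes. Among all genes, 12.7% had their Dicer LKO libraries above all controls and 28.0% did not overlap in either direction. Stab1, Cdh5, Kdr and Gata4 overlapped, and in TPM Stab2 and Clec4g did so too. Without control replicate 3, 0 of the 10 genes were called, with adjusted p-values of 0.0555 for Vwf and 0.0511 for Esm1 (edgeR).

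**Figure D1:**
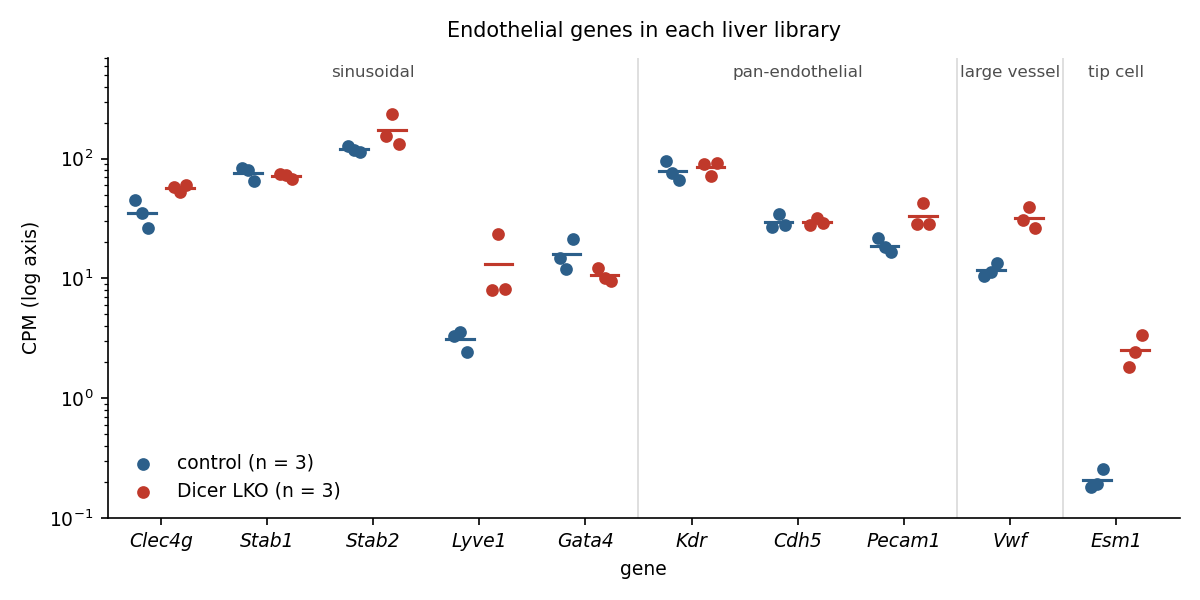
CPM of the 10 genes on a log axis, with 1 point per library (blue, control; red, Dicer LKO; n = 3 each) and a line at the group mean. Red and blue points are apart for Esm1, Vwf, Lyve1, Pecam1, Clec4g and Stab2, and mixed for Stab1, Cdh5, Kdr and Gata4.

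Vwf encodes von Willebrand factor, the large plasma protein that captures platelets at sites of vessel damage and that marks large-vessel endothelium. The gene (ENSMUSG00000001930.17, chromosome 6, 125546774 to 125686679, plus strand, GRCm38) was at 30.5, 39.2 and 26.5 CPM in Dicer LKO replicates 1, 2 and 3 and at 10.5, 11.4 and 13.4 CPM in the controls. Every Dicer LKO library was thus well above every control, and the 3 controls lay close together. The means were 32.1 ± 6.49 CPM and 11.8 ± 1.48 CPM (SD, n = 3 each), the log2 fold change was 1.45 (SE 0.18) and the adjusted p was 0.0196 (edgeR). The exact two-sided permutation test of the CPM values gave 0.1, the smallest p that 3 against 3 allows. The adjusted p was 0.057 without Dicer LKO replicate 1, 0.063 without control replicate 2 and 0.193 in the 4 libraries with Myh6 counts, with log2 fold changes of 1.49, 1.44 and 1.22 (edgeR).

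Megakaryocytes and platelets also contain von Willebrand factor. Of 12 platelet and megakaryocyte markers, 5 passed the filter and 0 were called by edgeR, with 2 at an unadjusted p under 0.05 and 0 called by DESeq2. Their median log2 fold change was 0.79, with 4 of the 5 positive. Platelet factor 4 (Pf4) was at 1.05, 1.14 and 0.797 CPM in Dicer LKO and 0.496, 0.336 and 0.383 CPM in the controls (log2 fold change 1.28, adjusted p = 0.111, edgeR). Clec1b, a receptor of platelets that the sinusoidal endothelium also transcribes, had a log2 fold change of 0.59 (adjusted p = 0.241). The integrin gene Itga2b, a defining marker of the lineage, had one of −0.19 (adjusted p = 0.742). The others tested, chosen after their values were seen, were the integrin gene Itgb3 (1.30, adjusted p = 0.199) and the chemokine gene Ppbp (0.79, adjusted p = 0.387), both with every Dicer LKO library above every control. The summed TPM (a share of transcripts, corrected for gene length) of the 12 markers was 13.4 to 16.4 in Dicer LKO against 8.06 to 11.4 in controls, most of it from Clec1b. Gp1ba, a platelet adhesion receptor gene, was at 0 to 4 counts in every library. The part of platelets in the Vwf result was not tested.

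Esm1 encodes endocan, a proteoglycan that endothelial cells secrete and that is known for its high level in the tip cells of sprouting vessels. The gene (ENSMUSG00000042379.8, chromosome 13, 113209659 to 113218098, plus strand, GRCm38) was at 1.83, 2.43 and 3.35 CPM in Dicer LKO replicates 1, 2 and 3. In the controls it was at 0.180, 0.192 and 0.255 CPM, which are 4 counts in each library, against 40, 51 and 84 counts. Every Dicer LKO library was thus far above every control, although the level stayed low: 0.66, 0.81 and 1.24 TPM, the lowest of the 10 genes in both groups. The means were 2.54 ± 0.762 and 0.209 ± 0.0402 CPM (SD, n = 3 each), the log2 fold change was 3.59 (SE 0.39) and the adjusted p was 0.0148 (edgeR). Since all 3 controls had the same 4 counts, their SD reflects only the sizes of the libraries. It does not show the counting error, which is large at 4 counts. In the 4 libraries with Myh6 counts the log2 fold change was 4.03 with an adjusted p of 0.0608.

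Esm1 had the largest fold change of the 10 genes and Kdr, which encodes the VEGF receptor of the same sprouting cells, is one that did not pass the test, so the 250 bases before their RefSeq starts (GRCm38.p6) are shown 5′ to 3′ in the direction of transcription. Capitals mark the core of ETS factor sites (GGAA, both strands), a family that drives endothelial genes; GATAA, searched in the same way for GATA factors, was found in neither. Esm1 lies at chr13:113209409-113209658 (plus strand) and Kdr at chr5:75978456-75978705 (minus strand).
Esm1: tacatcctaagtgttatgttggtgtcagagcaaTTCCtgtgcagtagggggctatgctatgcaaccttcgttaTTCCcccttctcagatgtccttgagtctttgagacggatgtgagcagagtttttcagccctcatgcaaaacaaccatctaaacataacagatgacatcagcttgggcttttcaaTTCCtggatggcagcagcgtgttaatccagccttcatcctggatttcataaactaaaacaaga
Kdr: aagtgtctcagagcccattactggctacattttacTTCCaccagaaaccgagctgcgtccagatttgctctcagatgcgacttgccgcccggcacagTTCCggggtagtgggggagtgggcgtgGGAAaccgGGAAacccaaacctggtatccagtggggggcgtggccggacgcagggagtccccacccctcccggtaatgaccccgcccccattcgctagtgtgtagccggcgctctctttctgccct
The core occurred 3 times before Esm1 and 4 times before Kdr. Over 32851 promoters of the same length its median was 3, and 93.4% held it at least once, while 22.6% held GATAA. Stab1, Stab2 and Clec4g, the other members with a RefSeq promoter at hand, held the core 6, 6 and 5 times and GATAA in none. These matches are letters in a window and show no bound factor.

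**Figure D2:**
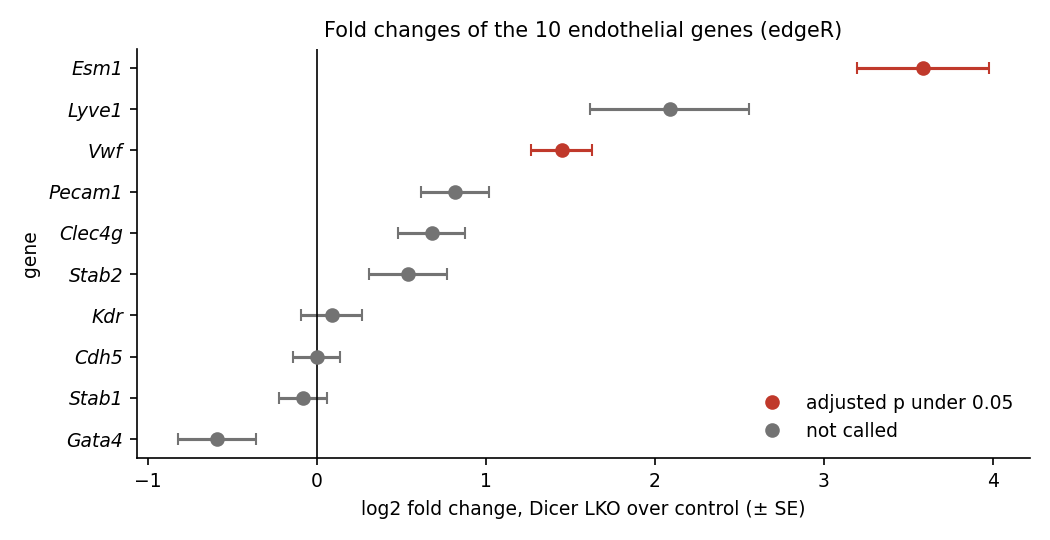
Log2 fold change of Dicer LKO over control for each of the 10 genes, with bars of 1 SE, from edgeR's fit over all genes. The red points, Esm1 at 3.59 and Vwf at 1.45, are those with an adjusted p under 0.05.

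Of the 5 sinusoidal genes, none was called by edgeR. 4 had an unadjusted p under 0.05, 3 of them with positive values (Lyve1, Clec4g and Stab2) and 1 with a negative value (Gata4), and Stab1 was near 0. DESeq2 called 2 of the 5, Lyve1 and Clec4g, and voom with sample weights called 1, Clec4g.

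Stab1 and Stab2 encode stabilin-1 and stabilin-2, paired scavenger receptors by which sinusoidal cells clear modified proteins and hyaluronan. Stab1 was at 74.1, 73.3 and 68.2 CPM in Dicer LKO replicates 1 to 3 and at 82.9, 80.2 and 64.9 CPM in the controls. Its log2 fold change was −0.08 (SE 0.14, adjusted p = 0.781, edgeR), and the Dicer LKO values lay inside the range of the controls. Stab2 was at 154, 238 and 132 CPM in Dicer LKO and at 129, 118 and 113 CPM in the controls. Replicate 2 stood above the other 5 libraries, and replicate 3 was just above the highest control. In TPM, Dicer LKO replicate 3 (15.06) was just below control replicate 1 (15.5). The log2 fold change of Stab2 was 0.54 (SE 0.23, adjusted p = 0.228), or 0.29 without Dicer LKO replicate 2 and 0.18 in the 4 libraries with Myh6 counts (edgeR). Per length, both genes were at like levels in the controls, with 15.6 TPM for Stab1 and 14.2 TPM for Stab2. The TPM of Stab2 per TPM of Stab1 was 1.91 in Dicer LKO replicate 2 and 0.739 to 1.06 in the other 5 libraries. Taken from CPM, this ratio was above every control in every Dicer LKO library. Stab1 shares 112 exon bases with the opposite-strand gene Nt5dc2 and Stab2 141 with the antisense transcript Gm16268, and with the strand setting unknown their reads cannot be told apart there.

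Lyve1 encodes a hyaluronan receptor of sinusoidal and lymphatic endothelium. It was at 8.07, 23.7 and 8.17 CPM in Dicer LKO replicates 1, 2 and 3 against 3.29, 3.6 and 2.42 CPM without Cre. All 3 Dicer LKO libraries were above all controls, and replicate 2 stood far above the other 2. This was a log2 difference of 2.09 (SE 0.47). Its adjusted p was 0.0841 by edgeR and 0.000249 by DESeq2. Without Dicer LKO replicate 2 it was 1.42 (adjusted p = 0.0622, edgeR), and in the 4 libraries with Myh6 counts 1.44 (adjusted p = 0.324). Macrophages of some tissues also carry Lyve1, and lymphatic vessels do so throughout the body. Of 8 Kupffer cell and macrophage markers, all had positive values and 0 were called by edgeR, 2 had an unadjusted p under 0.05 and DESeq2 called 1 (Marco). Their summed TPM was 117 to 150 in Dicer LKO against 68.9 to 144 in controls. The most abundant, Cd5l and Clec4f, had log2 fold changes of 0.35 and 0.36 (adjusted p = 0.657 and 0.403, edgeR). The scavenger receptor gene Marco, named after its values were seen, was at 14.6, 35.3 and 14.4 CPM in Dicer LKO. In the controls it was at 6.49, 6.63 and 3.63 CPM, and its highest value was in the same library as that of Lyve1. The list as a whole did not peak there. Its median log2 CPM relative to the control mean was 0.74, 0.36 and 0.70 in Dicer LKO replicates 1 to 3. Cd5l and Clec4f were lowest of the Dicer LKO libraries in replicate 2 (94.9 and 85.2 CPM). Of 5 lymphatic markers, 3 passed the filter. Pdpn and Ccl21a were at 8 counts or fewer in every library except control replicate 3, where Ccl21a had 16 counts. The other lymphatic markers tested, Flt4 and Mmrn1, were not called, nor was Prox1, which hepatocytes transcribe as well (log2 fold change −0.71, adjusted p = 0.0841, edgeR). DESeq2 and voom with sample weights called Prox1 lower. The part of macrophages and lymphatic vessels in the Lyve1 values was not tested.

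Clec4g encodes LSECtin, a sugar-binding lectin of the sinusoidal endothelium, and was the most abundant of the 10 genes per length, at 37.1 ± 4.69 TPM in Dicer LKO and 25 ± 6.34 TPM in the controls (SD, n = 3 each). In CPM it was at 58.5, 52.3 and 60.4 in Dicer LKO replicates 1 to 3 and at 45.1, 35.0 and 26.3 in the controls. The Dicer LKO libraries lay close together and above the controls in CPM, but in TPM replicate 2 (31.87) was just under control replicate 1 (31.9). On the log2 scale the difference was 0.68 (SE 0.20). Its adjusted p was 0.115 by edgeR, 0.0475 by DESeq2 and 0.0309 by voom with sample weights. Clec4g shares 146 exon bases with the antisense transcript Gm16553.

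Gata4 encodes a zinc finger transcription factor that specifies the sinusoidal, discontinuous type of liver endothelium. Unlike the other sinusoidal members with an unadjusted p under 0.05 it had a negative value. It was at 12.3, 10.1 and 9.56 CPM in Dicer LKO replicates 1 to 3 and at 14.8, 11.9 and 21.5 CPM in the controls, so that the groups overlapped through control replicate 2. The log2 fold change was −0.59 (SE 0.23, adjusted p = 0.200, edgeR), and −0.30 without control replicate 3 (adjusted p = 0.445). Stellate cells and heart muscle also transcribe Gata4. The 13 heart muscle markers summed to 1.41, 0.35 and 8.71 TPM in Dicer LKO and 11, 10.6 and 63.5 TPM in the controls. The highest sum was in the control with the highest Gata4. Within Dicer LKO the order differed: replicate 3 had the highest sum and the lowest Gata4 CPM. Nppa (atrial natriuretic peptide) and Myl2 (a ventricular myosin light chain) were at 0 counts in Dicer LKO replicates 1 and 2, and at 17.9 CPM for Myl2 in control replicate 3. Of the 13, 9 passed the filter, all of them with negative values, 0 were called by edgeR or DESeq2, and 1 had an unadjusted p under 0.05. Within the 4 libraries with Myh6 counts the log2 fold change of Gata4 was −0.70 (adjusted p = 0.712, edgeR). Among 8 stellate cell markers, 5 had positive and 3 negative values, with log2 fold changes from −0.50 to 2.19. By edgeR 1 was called higher, lumican (Lum), a gene named after its values were seen. It was at 28, 28 and 41.2 CPM in Dicer LKO against 6.67, 5.67 and 8.99 CPM in the controls (adjusted p = 0.0148, edgeR). Of the 8 markers, 4 had an unadjusted p under 0.05, and DESeq2 called 4. Their summed TPM was 124 to 154 in Dicer LKO against 86.0 to 99.3 in controls. The abundant stellate genes Dcn and Reln had log2 fold changes of 0.86 and −0.02 (adjusted p = 0.0633 and 0.952). The part of other cell types in the Gata4 values was not tested.

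None of the 3 pan-endothelial genes was called by edgeR. Cdh5, which encodes VE-cadherin, the adhesion protein of endothelial junctions, was at 27.9, 31.9 and 29.3 CPM in Dicer LKO replicates 1 to 3 and, in the controls, at 26.7, 34.5 and 28.2 CPM. The ranges overlapped fully and the log2 fold change was 0.00 (SE 0.14, adjusted p = 0.991, edgeR). Kdr, the gene of the main signalling receptor for VEGF, was at 89.7, 71.3 and 93.0 CPM against 96.5, 75.9 and 66.3 CPM. Its log2 fold change was 0.09 (SE 0.18, adjusted p = 0.819), and −0.02 when library totals replaced TMM factors, a scaling that moved the median of all genes to −0.13. Pecam1, which encodes the adhesion protein CD31 and is also found on platelets and leukocytes, was at 28.5, 42.4 and 28.6 CPM in Dicer LKO and at 21.7, 18.2 and 16.5 CPM in the controls. All 3 Dicer LKO libraries were above all controls. The log2 difference was 0.82 (SE 0.20). Its adjusted p was 0.0834 by edgeR, 0.0137 by DESeq2 and 0.0482 by voom with sample weights.

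In order of mean TPM, the controls ran from Clec4g (25) over Stab1 (15.6), Stab2 (14.2), Kdr (10.4), Cdh5 (6.46), Pecam1 (4.52), Gata4 (4.38), Vwf (2.04) and Lyve1 (0.857) to Esm1 (0.0800). In Dicer LKO, Stab2 (20.1 TPM) stood above Stab1 (16.0), Pecam1 (7.18) above Cdh5 (6.39), and Vwf (5.10) and Lyve1 (3.73) above Gata4 (2.62). Among control neighbours, Stab1 and Stab2 (SD 2.34 and 1.16 TPM) and Pecam1 and Gata4 (SD 0.648 and 1.29 TPM) did not differ beyond their spread. Vwf and Gata4 changed places fully. In each control library Vwf was below Gata4 (1.75 to 2.31 against 3.19 to 5.75 TPM), and in each Dicer LKO library above it (4.51 to 6.24 against 2.23 to 3.26 TPM).

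Setting the large-vessel gene against the sinusoidal ones within each library removes the scaling between libraries. The TPM of Vwf per TPM of Stab1 was 0.242, 0.432 and 0.308 in Dicer LKO replicates 1 to 3 and 0.120, 0.112 and 0.166 in the controls. Per TPM of Stab2 it was 0.255, 0.226 and 0.301 against 0.113, 0.152 and 0.171. Every Dicer LKO ratio was above every control ratio in both cases, and also per Cdh5 (0.656 to 1.02 against 0.267 to 0.392) and per Pecam1 (0.688 to 0.721 against 0.333 to 0.572). Lyve1 per Stab1 was at 0.137, 0.431 and 0.164 against 0.0609, 0.0514 and 0.0532, so a sinusoidal gene separated from Stab1 in the same direction as Vwf did. Clec4g per Stab1 overlapped between groups in TPM (2.05 to 2.78 against 1.30 to 2.18). Taken from CPM, this ratio was above every control in every Dicer LKO library, as was Vwf per Stab1. The units order the libraries differently for Stab1. Dicer LKO replicate 1 was at 74.1 CPM and 18.66 TPM, and control replicate 1 at 82.9 CPM and 14.62 TPM. A ratio shows unequal values of 2 genes and not which of them changed, and no test was made of these ratios.

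**Figure D3:**
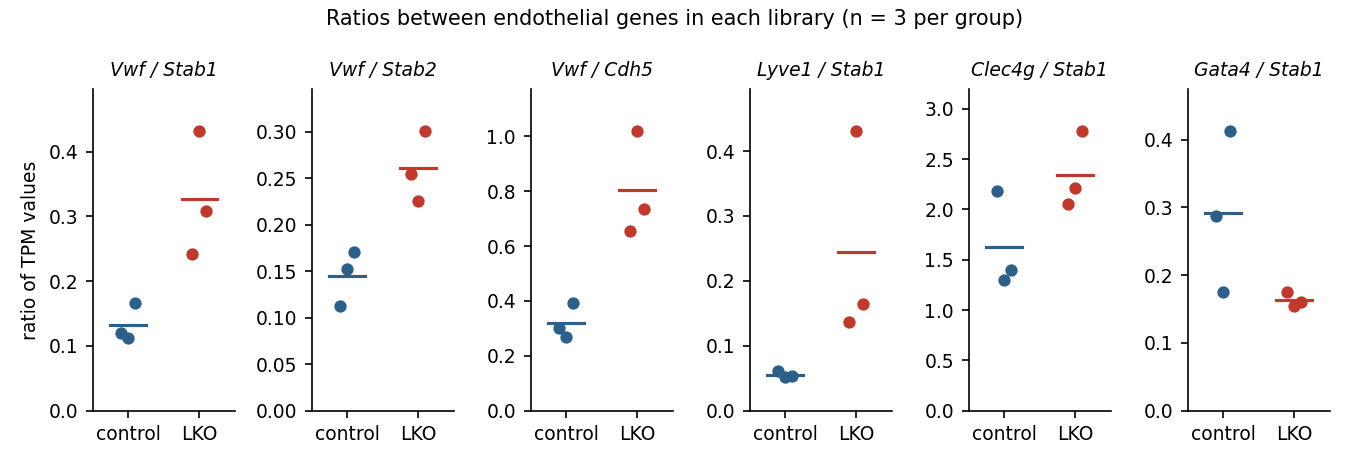
TPM ratio of gene pairs in each library (blue, control; red, Dicer LKO; n = 3 each), with a line at the mean and axes from 0. Vwf per Stab1 lay at 0.242 to 0.432 in Dicer LKO against 0.112 to 0.166 in controls. Clec4g per Stab1 overlapped in TPM, though not when taken from CPM.

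Other genes of each vessel type were taken from lists of known markers. With the members included, 19 sinusoidal genes were tested; 0 were called by edgeR and 7 had an unadjusted p under 0.05, and the median log2 fold change was 0.15, against −0.01 over all genes. Of these, 11 had positive and 8 negative values. Among the 14 that were not members, Fcgr2b, an Fc receptor that clears immune complexes, and Ehd3, a membrane trafficking protein, were the most abundant. Fcgr2b was at 41.1 to 48.8 CPM in Dicer LKO and 48.3 to 56.4 CPM in the controls (log2 fold change −0.21, adjusted p = 0.407, edgeR), and Ehd3 at 33.2 to 77.5 against 70.6 to 83.0 CPM (−0.44, adjusted p = 0.418). 2 genes named after their values were seen went apart: Mrc1, the mannose receptor, at 111 to 114 against 54.2 to 93.7 CPM (0.58, adjusted p = 0.156), and Dnase1l3, a secreted DNase, at 17.3 to 24 against 29.0 to 37.4 CPM (−0.65, adjusted p = 0.0994). Dnase1l3 was called lower by DESeq2 and by voom with sample weights.

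Of 18 large-vessel genes including Vwf, 14 passed the filter. Vwf was the 1 called by edgeR; 5 had an unadjusted p under 0.05, 11 of the 14 had positive values, and the median log2 fold change was 0.59. Without a filter on low counts, all 18 had a median of 0.60, and DESeq2 again called Vwf and no other. The lists' medians over single libraries, relative to the control mean, were 0.56, 0.58 and 0.73 for the large-vessel genes in Dicer LKO replicates 1 to 3 and −0.02, 0.09 and 0.14 for the sinusoidal genes. In the controls they ran from −0.07 to 0.16 and from −0.17 to 0.09. Lists of other cell types had medians near that of the large-vessel genes or above it. Over the 6 libraries these were 0.57 for Kupffer cells and macrophages and 0.54 for stellate cells. In Dicer LKO replicates 1 to 3 they were 0.74, 0.36 and 0.70 for the former and 0.65, 0.61 and 0.43 for the latter. The 5 platelet and megakaryocyte markers tested had a median of 0.79, with 0.72, 1.24 and 0.64 in Dicer LKO replicates 1 to 3. The summed TPM, which a few abundant genes set, did not separate: 23.8 to 33.4 in Dicer LKO against 21.5 to 36.2 in the controls for the large-vessel genes, and 175 to 189 against 150 to 184 for the sinusoidal ones. In the 4 libraries with Myh6 counts the median of the large-vessel genes was 0.81. Some other lists were higher there too (Kupffer cells and macrophages 0.65, hepatocyte markers 0.42, endothelial-derived signals 0.43), while stellate cell markers were at 0.46. Without control replicate 3 the sinusoidal median was 0.02 and the large-vessel median 0.66.

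The 2 most abundant did not pass the test and overlapped between groups: Ly6a, a surface antigen that interferon also induces, was at 5 to 7.61 CPM against 3.79 to 17.4 CPM (log2 fold change −0.46, adjusted p = 0.683, edgeR), and Ephb4, a venous receptor kinase, at 26.2 to 39.4 against 29.5 to 35.1 CPM (0.03, adjusted p = 0.951). Chosen after their values were seen, Gja5, a connexin of arteries, was at 0.905 to 1.05 against 0.496 to 0.574 CPM (0.87, adjusted p = 0.180) and Fbln5, an elastic fibre protein, at 8.03 to 9.43 against 2.35 to 6.70 CPM (1.01, adjusted p = 0.155). Cd34, a marker of continuous capillaries, was at 2.84, 4.76 and 6.81 CPM against 1.67, 0.816 and 3.57 CPM (1.28, adjusted p = 0.234) and overlapped. Gja5 and Fbln5 did not overlap between the groups. Voom with sample weights called Fbln5 higher. Fibroblasts make Fbln5 too. Among 8 smooth muscle and pericyte markers, 7 passed the filter, 0 were called by edgeR, and DESeq2 and voom with sample weights each called 1, Rgs5, with 1 at an unadjusted p under 0.05. The list's summed TPM was 18.1 to 25.2 in Dicer LKO against 9.80 to 30.9 in controls. Rgs5, a pericyte gene, was at 65.1 to 125 against 28.5 to 49.7 CPM (1.18, adjusted p = 0.0891, edgeR), and Des, which striated muscle shares, at 62.5 CPM in control replicate 3 and 3.43 to 5.34 CPM elsewhere. The part of these cells in the large-vessel values was not tested.

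**Figure D4:**
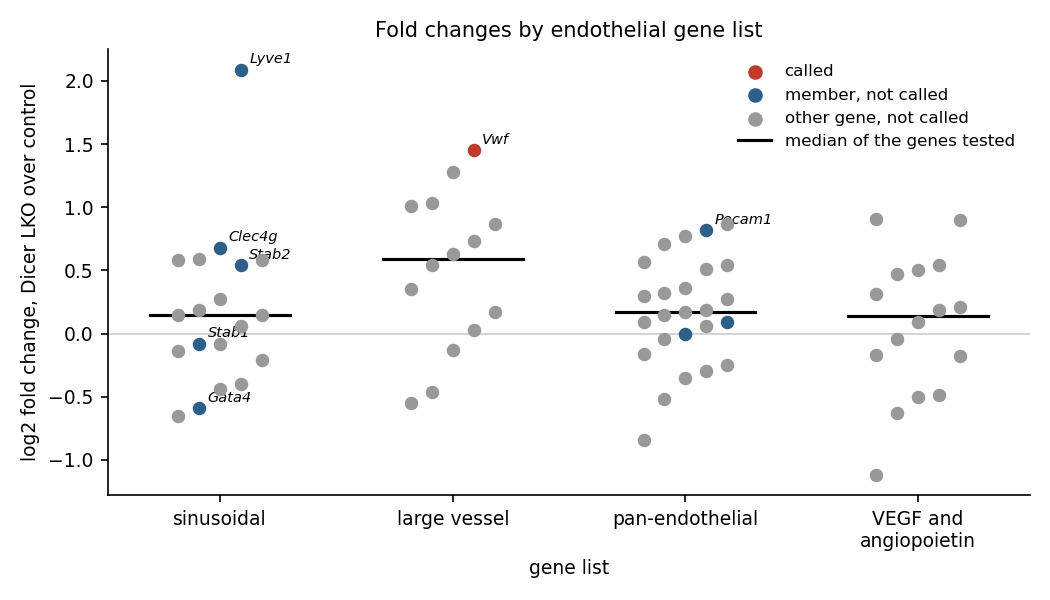
Log2 fold change of every tested gene of 4 lists, with black lines at the medians (0.15, 0.59, 0.17 and 0.14 from left to right). Red marks called genes, blue the members that were not called; Esm1 belongs to none of the 4 lists.

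With Pecam1, Cdh5 and Kdr, 25 pan-endothelial genes were tested. 0 were called by edgeR, 6 had an unadjusted p under 0.05, DESeq2 called 1 (Pecam1), voom with sample weights called Pecam1 higher and Sox18 lower, and the median log2 fold change was 0.17, with 17 positive and 8 negative values. Egfl7, a secreted vascular protein whose gene hosts miR-126, was at 18.1 to 26.6 against 18.9 to 21.1 CPM (log2 fold change 0.09, adjusted p = 0.812, edgeR). Ptprb, the phosphatase VE-PTP, was at 137 to 173 against 200 to 209 CPM, all Dicer LKO libraries below all controls (−0.35, adjusted p = 0.242).

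VEGF and the angiopoietins steer vessel growth. Of 19 genes of these pathways, 16 passed the filter, 0 were called by edgeR, DESeq2 or voom with sample weights, 2 had an unadjusted p under 0.05, and the median was 0.14. The ligand gene Vegfa was at 70.9, 152 and 65.0 CPM in Dicer LKO replicates 1 to 3 and at 118, 90.2 and 118 CPM in the controls (log2 fold change −0.18, adjusted p = 0.802, edgeR). The co-receptor gene Nrp1 was at 89.3, 259 and 92.6 against 120, 190 and 105 CPM (0.09, adjusted p = 0.939). Both were highest in Dicer LKO replicate 2, the library in which Stab2, Lyve1, Vwf and Pecam1 were also highest. Other endothelial genes went the other way: Kdr (71.3 CPM), Clec4g (52.3 CPM) and Ptprb (137 CPM) were lowest of the Dicer LKO libraries there. This library also had the lowest TMM factor (0.8963) and the lowest mitochondrial share (4.62%).

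The liver endothelium also sends signals to other cells of the liver. Of 10 genes of such signals, 0 were called by edgeR, 1 had an unadjusted p under 0.05 and the median was 0.11. Hgf, the hepatocyte growth factor, which stellate cells make too, was at 69.3, 52.5 and 43.3 CPM against 31.6, 29.2 and 23.8 CPM. All 3 Dicer LKO values were above the controls (log2 fold change 0.96, SE 0.20, adjusted p = 0.0636, edgeR), and DESeq2 and voom with sample weights called it. Bmp2, a sinusoidal ligand that acts on hepcidin, was at 7.48 to 16.9 against 15.3 to 17.4 CPM (−0.41, adjusted p = 0.435). Hepatocyte markers had a median of 0.05 over 6 genes, with 0 called by edgeR or DESeq2 and 0 at an unadjusted p under 0.05. Apoa1, an apolipoprotein, was at 3910 to 5350 against 3970 to 5470 CPM.

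Since Dicer makes mature miRNAs, the 3′ untranslated regions of the 10 genes (GENCODE M21, the transcript with the longest coding part) were searched for matches to bases 2 to 8 of 6 miRNAs known from hepatocytes or endothelium. For let-7a-5p, miR-30a-5p, miR-192-5p and miR-126a-3p no member held a match, where 9.19%, 14.7%, 6.13% and 0.159% of 12612 tested genes did. For miR-148a-3p and miR-29a-3p, 1 member each held one, Cdh5 and Stab2, where 13.8% and 13.9% of genes did. These 2 pairs are shown 5′ to 3′, with the seed of the miRNA (RefSeq, GRCm38.p6) and the matching bases of the site in capitals. The Cdh5 site lies at chr8:104143559-104143586 (plus strand) and the Stab2 site at chr10:86841346-86841373 (minus strand, GRCm38).
miR-148a-3p: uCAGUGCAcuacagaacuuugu
Cdh5 site: gcctgagccccaTGCACTGctttgatga
miR-29a-3p: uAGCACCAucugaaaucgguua
Stab2 site: gcaccttccagaTGGTGCTtggcctgtt
Neither Cdh5 (log2 fold change 0.00) nor Stab2 (0.54) was called, and neither Vwf nor Esm1 held a match to these 6 seeds, in regions of 140 and 1358 bases. A match is a description of the sequence, and miRNAs were not measured here. The 10 genes mark endothelial cells, which are not a target of this Cre, and other miRNAs were not searched. The presence or absence of a match thus does not tell how the loss of Dicer in hepatocytes bears on these genes.

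Genes tested were also ranked by Pearson's r of their log2 CPM with Vwf and with Stab2. Members and genes with predicted-gene, Rik or clone names were left out. Over the 6 libraries, the genes closest to Vwf among the rest were Trem2 (0.996), Phf11d (0.995), Abcb4 (0.989), Slc43a3 (0.988) and Spats2l (0.988). Those closest to Stab2 were Mcfd2 (0.995), Tmc7 (0.988), Nt5c2 (0.987), Pfkl (0.986) and Trim24 (0.985). With 6 libraries in 2 groups, and the closest of many genes picked, such values are a description of order.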

How the data were processed

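Whole-liver RNA was sequenced in 6 libraries. The authors deposited, per sample, an expected count (an unscaled estimate of each gene's reads) and a TPM value (scaled by effective gene length and to 1 total per library), in columns named as RSEM writes them, per the file headers. CASAVA, Bowtie and the human build hg19 appear in the submitters' processing notes, while the tables list mouse identifiers. For the counting program, strand setting and mouse annotation, the sources used here give no name. Positions are from GENCODE M21 (GRCm38), matched by gene identifier and symbol. A series table with 6 columns of codes that match no sample title was not used.

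Groups and replicate numbers came from sample titles. Expected counts were rounded to whole numbers, kept where filterByExpr passed them and scaled by TMM. All genes were fitted with edgeR 4.0.16 (glmQLFit, robust; R 4.3.3); a call is a Benjamini-Hochberg adjusted p below 0.05. SE is the absolute log2 fold change over the square root of F. CPM uses the same factors. No 2 libraries were identical. Alternatives were DESeq2 1.42.0, voom with sample weights (limma 3.58.1), no filter, library totals, upper quartile factors, leaving out each library, a replicate block and, added after the data were seen, the 4 libraries with Myh6 counts.

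The members and gene lists were chosen with earlier results of these data known. Besides the members and Dicer1, genes were named from each list as up to 3 called genes of smallest adjusted p or, where fewer than 2 were called, the 2 of highest mean TPM. Added to these were the 5 genes closest to Vwf and to Stab2 in log2 CPM (0.5 added to counts). Members and predicted-gene, Rik or clone names were left out of that ranking. Others were named after their values were seen.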

Additional observations from a re-analysis of the deposited data

How the results depend on the processing

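Leaving out 1 library at a time gave log2 fold changes of 1.32 to 1.57 for Vwf, 3.34 to 3.78 for Esm1 and −1.15 to −0.79 for Dicer1, and 0 to 3 called members. Vwf lost its call without Dicer LKO replicate 1, control replicate 2 or control replicate 3, and Esm1 without control replicate 3. DESeq2 called 5 members and voom with sample weights 4. In the 4 libraries with Myh6 counts, 1 Dicer LKO library against 3 controls, 0 members were called (Vwf 1.22, Esm1 4.03), the lone library being assumed to vary like the controls, and the large-vessel median was 0.81. Dicer1 was called with DESeq2 (−0.99), without a filter (−0.98), with voom (−1.11) and without control replicate 1 (−1.15). The sign of Cdh5 turned around its value of 0.00. It was 0.00 with DESeq2 and with the replicate block, 0.01 without a filter and 0.05 with upper quartile factors. With voom it was −0.14, with library totals −0.13, with the Myh6 libraries 0.03 and without single libraries −0.08 to 0.14. Kdr was −0.02 with library totals and 0.00 to 0.25 without single libraries. The cause of these changes was not tested. The deviations of same-numbered libraries from their group means had r = 0.0923, 0.0769 and −0.0802 over genes for numbers 1, 2 and 3. Libraries of different numbers had r from −0.15 to 0.0989. These values show no pairing by number, and with 3 libraries per group they cannot exclude one. With the replicate number as a block, 3 members were called (Vwf 1.44, Esm1 3.54, and Lyve1 1.93 with an adjusted p of 0.0355, edgeR). Over all genes, the 185 calls became 1098 with DESeq2, 787 with voom, 422 without a filter, 103 with library totals, 245 with the block, 23 to 389 without single libraries and 27 in the libraries with Myh6 counts. By direction, 106 were higher and 79 lower by edgeR, 487 and 611 by DESeq2, 236 and 551 by voom, 50 and 53 with library totals, and 94 and 49 with upper quartile factors. Depth limits the precision of Esm1, with 4 counts in each control.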
